A study of Homo sapiens with 6 samples.

Results

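The ATAC-seq lists of MCF10A cells held 1180 top-scoring regions, out of 49519 merged regions in all, that carried a high score in every library. To find them, the open regions of all 6 libraries on chromosomes 1 to 22 and X were merged wherever they overlapped or touched. A merged region was a member when, in each of the 6 libraries, at least 1 open region inside it had a score in the upper 10% of that library's list. The scores of all libraries therefore chose the members, and every score below is a description that was not tested. In ATAC-seq the enzyme Tn5 inserts adapters into exposed DNA, so that open chromatin yields most fragments. The cell line MCF10A comes from human mammary epithelium, does not form tumors and has a rearranged karyotype. All cells were pre-incubated for 30 min in phosphate-free buffered salt solution and then kept for 30 min in the same solution (control), in 50 μM TPA, which is tris(2-pyridylmethyl)amine, a membrane-permeable Zn2+ chelator, or in 30 μM ZnCl2. There were 2 libraries per condition.

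HMMRATAC, the hidden Markov model caller used by the authors, gave each open region a whole-number score of at least 30. The lists held between 18883 and 44637 regions on chromosomes 1 to 22 and X, and the score at their 90th percentile lay between 78 and 116. Scores are given below as multiples of that 90th percentile, the threshold of each list, so that 1 marks the threshold. The members took up between 3.0% and 7.02% of the regions of a list and between 27% and 63.2% of its upper 10%. Their median score was between 1.27 and 1.54 times the threshold. A further 742 merged regions had an upper 10% region in 5 of 6 libraries, and the library that lacked it was ZnCl2 replicate 2, the shortest list, in 433 of them. Since no read counts come with the lists, depth is unknown. Methods and results of the study name the replicates differently, as biological and as technical, and the p-values below measure only the spread between these libraries.

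Promoters of active genes are depleted of nucleosomes, and promoters rich in CpG dinucleotides are open in most cell types, whereas distal enhancers are open in few. In epithelial cells many distal open sites carry the recognition sequence of AP-1, the dimer of FOS and JUN family proteins. Open chromatin assays also collect fragments from DNA that is present in many copies, such as the mitochondrial genome, which has no nucleosomes, ribosomal RNA genes, small nuclear RNA gene arrays and satellite DNA near centromeres. Nuclear copies of mitochondrial DNA are insertions that resemble the mitochondrial genome to differing degrees. Where the resemblance is close, short reads may be placed on either.

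The 3 members with the highest mean score were nuclear copies of mitochondrial DNA. To show how close they are to the mitochondrial genome, 120 bases from the part that all 6 libraries called open are printed for each, 5′ to 3′ on the plus strand of hg38, above the matching mitochondrial bases. Capitals mark the positions at which the sequences differ. The member at chrX:126472061-126473390 lay outside protein-coding genes, 79424 bp from the start site of DCAF12L1, and was a patchwork of 3 mitochondrial matches that covered 91% of its width. These were 393 bp of MT-CO1, a subunit gene of cytochrome c oxidase, at 92.4% identity, 270 bp of MT-RNR1, the gene of the small mitochondrial ribosomal RNA, at 96.3%, and 554 bp of MT-ND4L and MT-ND4, subunit genes of respiratory complex I, at 93.7%. The 190 bp called in all libraries lay wholly in the match to MT-RNR1. The printed bases are chrX:126472576-126472695 and the minus strand of chrM:725-844, with 4 differences.
Nuclear copy on chromosome X: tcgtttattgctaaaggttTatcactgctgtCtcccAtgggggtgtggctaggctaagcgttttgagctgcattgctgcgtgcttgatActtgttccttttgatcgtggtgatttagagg
Mitochondrial genome: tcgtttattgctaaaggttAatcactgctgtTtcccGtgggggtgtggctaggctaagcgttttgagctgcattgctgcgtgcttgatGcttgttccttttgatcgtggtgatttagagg
The member at chr14:32484091-32485030 lay in an intron of AKAP6, which encodes a kinase anchoring protein, and matched part of MT-CO1 and neighboring mitochondrial tRNA genes over 936 bp at 92.6% identity, 99.3% of its width. The printed bases are chr14:32484805-32484924 and the minus strand of chrM:5779-5898, which holds tRNA genes, with 5 differences.
Nuclear copy on chromosome 14: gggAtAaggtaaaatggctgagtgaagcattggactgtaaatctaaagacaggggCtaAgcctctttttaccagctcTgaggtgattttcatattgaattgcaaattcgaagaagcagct
Mitochondrial genome: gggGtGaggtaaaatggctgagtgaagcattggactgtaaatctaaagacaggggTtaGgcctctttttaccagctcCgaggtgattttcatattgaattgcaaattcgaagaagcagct
The member at chr17:22524001-22524690 matched mitochondrial DNA over its whole width at 88.2% identity. The match covered parts of MT-RNR2, the gene of the large mitochondrial ribosomal RNA, and of the tRNA gene MT-TL1. The printed bases are chr17:22524166-22524285 and chrM:2737-2856, with 18 differences.
Nuclear copy on chromosome 17: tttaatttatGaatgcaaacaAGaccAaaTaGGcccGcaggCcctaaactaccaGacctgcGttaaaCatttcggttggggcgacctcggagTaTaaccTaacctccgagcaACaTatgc
Mitochondrial genome: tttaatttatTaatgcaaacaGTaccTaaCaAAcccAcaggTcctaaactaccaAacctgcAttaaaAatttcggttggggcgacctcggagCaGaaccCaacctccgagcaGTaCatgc

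The copy on chromosome X scored 23 and 20.7 times the threshold in control replicates 1 and 2, 28.8 and 20.3 times with TPA and 44 and 39.9 times with ZnCl2. Both ZnCl2 libraries were above the control and TPA libraries. Among the 15851 regions open in all libraries, 3.60% had both ZnCl2 multiples above both controls and 30.7% below, and 29.1% had both TPA multiples above both controls and 18.3% below. Among members these shares were 10.0%, 11.0%, 14.0% and 16.7% in the same order, and since the scores chose the members nothing is read from them. The copy on chromosome 14 scored 13.9 and 12.5 times the threshold in the control, 18.0 and 13.2 times with TPA and 27 and 23.9 times with ZnCl2, with the same order of the ZnCl2 libraries. The copy on chromosome 17 scored 13.7 and 11.1 times in the control, 14.9 and 12.3 times with TPA and 18.4 and 12.2 times with ZnCl2. Here the 3 conditions overlapped. The deposited lists have no regions on the mitochondrial genome itself, so the amount of mitochondrial DNA in each library is not known, and its part in these scores was not tested.

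**Figure D1:**
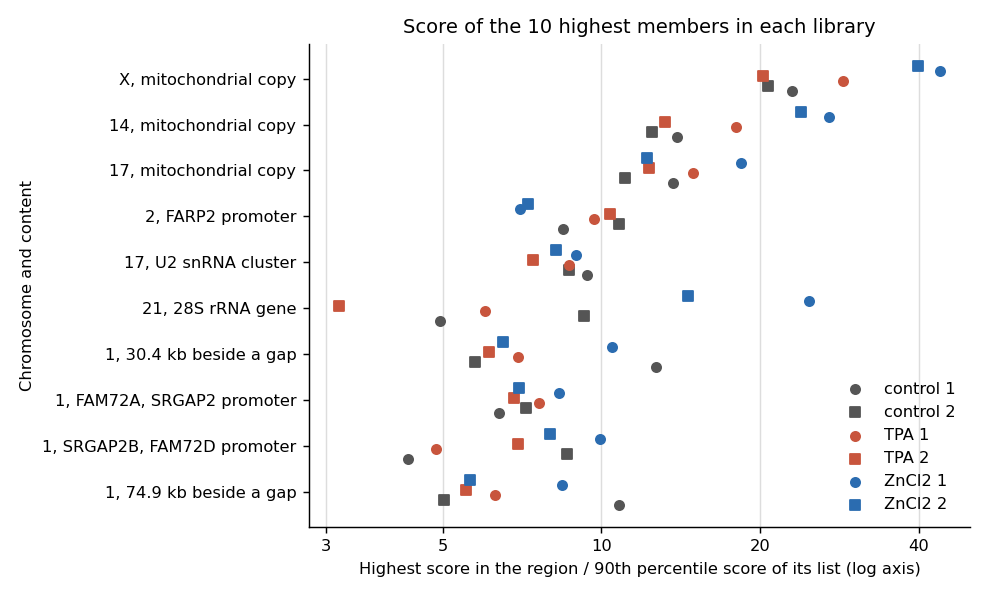
Highest score in each of the 10 members with the highest mean, on a log axis, as a multiple of the 90th percentile score of the list. Each point is 1 library, with color for the condition and a circle or square for replicate 1 or 2. The copies of mitochondrial DNA on chromosomes X, 14 and 17 have the highest means, with points at 11.1 to 44 times the threshold. Single points of other members reach into this range, at 24.8 and 14.6 times with ZnCl2 on chromosome 21 and 12.7 times in control replicate 1 at chr1:125154201-125184570.

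A mitochondrial match of at least 100 bp at 80% identity or more was found in 47 merged regions, of which 4 were members. The last of these was a minor case. The member at chr11:64184061-64189640, over the promoter of the co-chaperone gene STIP1, had a match of 169 bp at 80.5% identity and scored between 1.33 and 1.82 times the threshold. Most nuclear copies missed membership because they were called in some libraries only. Of the 47 regions, 6 were called in all 6 libraries, 22 in 2 to 5 and 19 in 1 library. The region at chr5:134926433-134927135 scored 2346 and 3388 in the control, 2746 in TPA replicate 2 and 6011 and 4652 with ZnCl2, and was not called in TPA replicate 1. The region at chr17:53105601-53106400 scored 2148 in control replicate 2, 2194 in TPA replicate 2 and 4235 and 4802 with ZnCl2, and was not called in the other 2 libraries. Many mitochondrial copies that were not members thus had high scores in some libraries. Of the 59 merged regions that reached 6 times the threshold in any library, 21 had a mitochondrial match, 24 others had repeated sequence and 14 had neither, while 16 of the 59 were members.

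**Figure D2:**
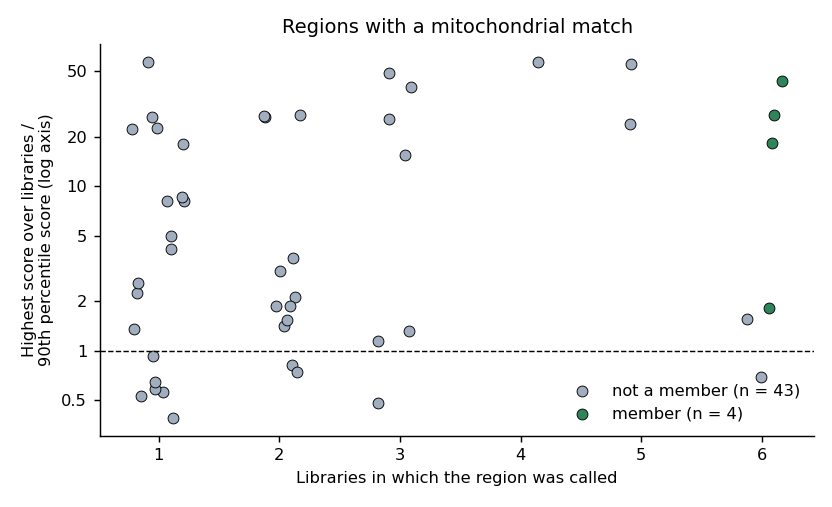
The 47 merged regions with a mitochondrial match, by the number of libraries in which they were called (x axis, points spread sideways) and the highest score over libraries as a multiple of the threshold (y axis, log scale, dashed line at 1). Only 6 regions were called in all 6 libraries, and 4 of those were members (green).

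Repeated sequence was looked for by cutting each region into pieces of 50 bp and counting how often each piece occurs on either strand of the assembled chromosomes and the mitochondrial genome. A region had repeated sequence when at least 50% of its pieces occurred more than once. This held for 81 members (6.86%), beside 1.08% of the 14671 other regions open in all 6 libraries and 3.61% of all merged regions. No test was made of this or of any other difference in sequence or position between members and other regions, since regions are not replicates. Multi-copy sequence was concentrated at the top of the ranking by mean score. Repeated sequence or a mitochondrial match was present in 8 of the first 10 members, 62.5% of the next 40, 20.0% of the next 50, 11.5% of members 101 to 300 and 2.16% of the remaining 880.

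The small nuclear RNA cluster at chr17:43233341-43252200 holds tandem copies of RNU2-1, the gene of the U2 RNA of the spliceosome. Repeats made up 87.8% of its pieces, with a median of 10 copies. It scored 9.38 and 8.68 times the threshold in the control, 8.68 and 7.42 times with TPA and 8.96 and 8.20 times with ZnCl2, a narrow range with overlapping conditions. The member at chr21:8218531-8220930 lies in RNA45SN2 and RNA28SN2, copies of the ribosomal RNA gene. It scored 4.95 and 9.28 times in the control, 6.01 and 3.18 times with TPA and 24.8 and 14.6 times with ZnCl2, and both ZnCl2 libraries were above the other 4. The members at chr1:206202571-206206320 (6.41 to 8.32 times) and chr1:145093241-145097210 (4.29 to 9.93 times) cover the shared promoters of SRGAP2 with FAM72A and of SRGAP2B with FAM72D, gene pairs that were duplicated in human evolution. Pieces at these promoters had a median of 4 copies.

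Some of the highest members lay beside gaps of the assembly. The region at chr1:143184691-143259620 was the widest member at 74930 bp, ended 103 bp from a run of unknown bases and scored between 5.04 and 10.8 times the threshold. The region at chr1:125154201-125184570 was 30370 bp wide, ended 17 bp from such a run and scored between 5.77 and 12.7 times. Both had their highest multiple in control replicate 1 and their lowest in control replicate 2. To show what the pieces look like, 1 piece of 50 bp is printed for the U2 cluster (chr17:43251741-43251790, 13 copies), the SRGAP2B promoter (chr1:145094991-145095040, 4 copies) and the region of 74930 bp (chr1:143255491-143255540, 43 copies), in which the letters attcc and attcg recur.
U2 cluster: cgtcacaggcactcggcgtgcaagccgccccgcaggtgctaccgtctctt
SRGAP2B promoter: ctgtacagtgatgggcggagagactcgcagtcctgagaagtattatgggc
Region beside the gap: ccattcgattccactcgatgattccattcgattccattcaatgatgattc
Of all members, 113 (9.58%) lay within 1 Mb of a run of at least 50 kb of unknown bases, beside 4.97% of the other regions open in all 6 libraries.

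Genes of small noncoding RNAs were also present. Members overlapped RefSeq snRNA genes in 11 cases (0.932%, beside 0.170% of the other regions open in all libraries) and tRNA genes in 11 (0.932% beside 0.600%). They overlapped rRNA genes in 2 cases (0.169% beside 0%) and miRNA genes in 37 (3.14% beside 1.20%). Members were wider than other regions, and the part of width in these overlaps was not tested. Here and below, a promoter counted as open in a library when it overlapped a merged region that the library called anywhere. The call need not cover the promoter, and the score of a member need not come from it. In a list of 20 small noncoding RNA genes, the promoters of 19 were open in all 6 libraries. Those of 4 lay in members: RNU1-1 of the U1 RNA, RMRP of RNase MRP, RPPH1 of RNase P and the vault RNA gene VTRNA1-1. The share over all small noncoding RNA genes was not counted, so nothing is read from these counts. The RNU1-1 member at chr1:16483017-16518386 scored 342 and 575 in the control, 515 and 499 with TPA and 622 and 380 with ZnCl2, a mean of 4.97 times the threshold.

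Below this top layer the members mostly overlapped promoters of protein-coding genes. A promoter was taken as the 1000 bp upstream of the outermost annotated start site of a gene. Such a promoter was overlapped by 856 of 1180 members (72.5%). The share was 42.3% in the other regions open in all 6 libraries and 20.6% in all merged regions. The center of the region lay in such a promoter in only 21.1% of members, beside 11.3% of the other regions open in all libraries. With promoters of all gene types the share that overlapped was 81.8%. Without the members that had repeated sequence or a mitochondrial match the share was 75.9% of 1095. The rest of those 1095 were 79 promoters of other gene types, 131 regions in gene bodies and 54 outside genes. A promoter of 2 or more coding genes was covered by 226 of the 856 promoter members (26.4%, beside 19.7% of the other promoter regions), and genes on both strands by 182 (21.3% beside 15.6%).

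Median GC content was 52.4% in members, 50.5% in the other regions open in all libraries and 47.1% in all merged regions. The observed over expected frequency of CpG had medians of 0.580, 0.386 and 0.249 in the same order. Among promoter regions the values were close, and without multi-copy sequence promoter members and other promoter regions had median GC contents of 52.8% and 53.3% and CpG ratios of 0.605 and 0.609. Members were wide, with a median of 3690 bp beside 2830 bp and 1830 bp, and a median of 1665 bp of each was called open in all 6 libraries, beside 1170 bp. Width is not independent of the rule, since the highest score is taken over all calls of a merged region.

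**Figure D3:**
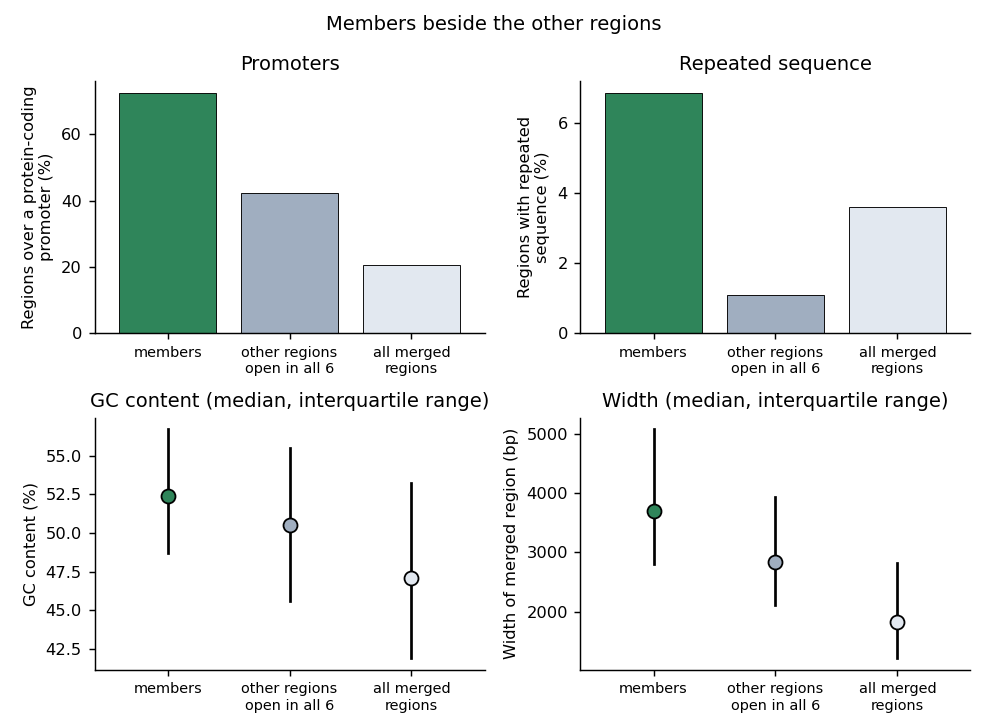
Share of regions over a protein-coding promoter, share with repeated sequence, GC content and width of members (n = 1180), other regions open in all 6 libraries (n = 14671) and all merged regions (n = 49519). Bars show percentages, and points with lines show medians with the interquartile range. Members had the highest value in each panel.

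The highest promoter member outside repeats, at chr2:241354231-241357720, was that of FARP2, which encodes a guanine nucleotide exchange factor. It scored 660 and 1247 in the control, 911 and 1019 with TPA and 792 and 610 with ZnCl2. As multiples of the threshold these were 8.46 and 10.8, 9.69 and 10.4, and 7.01 and 7.26, so that both ZnCl2 libraries were below the other 4, an order found toward the controls in 30.7% of the regions open in all libraries. The 250 bases upstream of its start site, chr2:241356035-241356284 on the plus strand, are shown from the RefSeq promoter table (GRCh38.p14) with its 4 GC boxes (GGGCGGG on either strand) and 2 CCAAT boxes in capitals.
FARP2: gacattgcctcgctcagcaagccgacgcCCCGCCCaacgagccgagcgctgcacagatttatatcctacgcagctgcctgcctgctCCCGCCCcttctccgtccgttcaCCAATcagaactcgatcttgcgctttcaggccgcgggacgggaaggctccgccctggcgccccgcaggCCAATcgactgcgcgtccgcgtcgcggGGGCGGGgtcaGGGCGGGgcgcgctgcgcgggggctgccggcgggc

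Immediate early genes, which are transcribed within minutes of a stimulus, were represented by 5 of 16 (EGR1, IER5, KLF10, BTG2 and SRF). Promoters of 14 of the 16 were open in all libraries. For comparison, 5.55% of all 19962 protein-coding genes had a member at the promoter. Among coding genes whose promoter was open in all libraries the share was 12.7%, beside 5 of 14 here. These 2 shares also stand beside the other lists of coding genes below, which are short. EGR1, a zinc finger transcription factor, was the highest of the 5. The member at chr5:138463012-138471891 scored 189 and 313 in the control, 218 and 225 with TPA and 315 and 208 with ZnCl2, a mean of 2.49 times the threshold. As multiples these were 2.42 and 2.70, 2.32 and 2.30, and 2.79 and 2.48, so that both TPA libraries were below both controls, as in 18.3% of the regions open in all libraries, while ZnCl2 and control overlapped. Its 250 upstream bases, chr5:138465229-138465478 on the plus strand, hold 2 matches to the CArG box, the sequence bound by serum response factor, which are in capitals. SRF, the gene of that factor, lay in a member with a mean of 1.14 times the threshold.
EGR1: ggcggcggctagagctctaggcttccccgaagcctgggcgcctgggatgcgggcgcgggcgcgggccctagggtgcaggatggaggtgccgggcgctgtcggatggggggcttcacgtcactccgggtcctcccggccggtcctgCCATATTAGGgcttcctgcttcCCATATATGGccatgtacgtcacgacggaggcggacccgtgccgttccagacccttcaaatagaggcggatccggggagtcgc
AP-1 factor genes were members in 2 of 12 cases, JUN (mean 1.28 times the threshold) and FOSL2 (1.17), with 8 of the 12 promoters open in all libraries. JUNB and JUND had an upper 10% region in 5 of 6 libraries, and FOS in none.

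Zinc homeostasis genes were members in 3 of 35 cases (8.57%, beside 5.55% of all protein-coding genes). Promoters of 18 of the 35 were open in all libraries, and 12.7% of all coding genes with such promoters were members. SLC30A1, which encodes the zinc exporter ZnT1 of the plasma membrane, scored 146 and 247 in the control, 190 and 190 with TPA and 243 and 144 with ZnCl2. SLC39A1, a zinc importer gene, scored 127 and 233 in the control, 159 and 177 with TPA and 199 and 127 with ZnCl2. As multiples of the threshold the conditions overlapped in both genes. SLC39A13, at a mean of 1.23 times, had 1.24 and 1.42 in the control, 1.03 and 1.19 with TPA and 1.44 and 1.12 with ZnCl2. Here too both TPA libraries were below both controls, and the ZnCl2 libraries lay on either side of them. The metallothionein genes MT1E and MT2A were open in every library but had no upper 10% region in any, and MTF1, the gene of the metal-responsive transcription factor, had 1 in a single library. The 250 bases upstream of SLC30A1, chr1:211579162-211579411 read from the minus strand, hold 1 match to the core of the metal response element (TGCACNC or TGCGCNC on either strand), which is in capitals. The same letters occurred in 36.1% of the RefSeq promoters of member genes and in 38.3% of those of other genes open in all libraries, so that the match is common.
SLC30A1: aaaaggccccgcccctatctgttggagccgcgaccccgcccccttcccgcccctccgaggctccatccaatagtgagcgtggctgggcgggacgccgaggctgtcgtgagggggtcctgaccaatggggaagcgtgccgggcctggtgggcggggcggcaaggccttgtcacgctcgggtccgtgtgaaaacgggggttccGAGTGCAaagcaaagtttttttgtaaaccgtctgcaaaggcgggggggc

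The labelled cell type was checked by the promoters of marker genes. Of 13 basal mammary markers, 12 promoters were open in at least 1 library and 5 in all 6, and 2 lay in members: LAMB3, a laminin chain of the basement membrane (mean 2.00 times the threshold), and SFN, the epithelial 14-3-3 sigma gene (1.10). KRT5 was open in 5 libraries, KRT14 in 4 and COL17A1 in 2, and the promoter window of TP63 was open in none. Each gene had 1 window, at its outermost annotated start site. Internal start sites, of TP63 or of any other marker, were not examined. Of 10 luminal markers, 4 were open in all libraries (EPCAM, FOXA1, KRT8 and KRT18) and none lay in a member. The counts open in all libraries, 5 of 13 basal and 4 of 10 luminal markers, did not tell the 2 lineages apart. Markers were not always separate regions. KRT8 and KRT18 shared 1 merged region of 21250 bp, and KRT5 and KRT6A shared 1 of 34740 bp. None of 8 blood and immune markers was open in all libraries, and of 10 fibroblast and endothelial markers 1 was (COL1A1). From the EGF receptor pathway, 1 of 19 genes, the adaptor gene SHC1, was a member, with 10 promoters open in all libraries. From 23 genes of translation and housekeeping 2 were (HSPA8 and RPL13A), with 16 open in all libraries. ACTB and GAPDH were not members, although GAPDH had an upper 10% region in 5 libraries.

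Gene families were grouped by symbol and set beside all protein-coding genes whose promoter was open in all libraries, of which 1107 of 8689 (12.7%) lay in members. Of 37 open genes of the hnRNP, SRSF and SF3 splicing factors 9 were members (24.3%), among them HNRNPA3, HNRNPC, HNRNPD, HNRNPF and HNRNPR. Heat shock and DNAJ chaperone genes followed with 9 of 49 (18.4%), among them HSPA8 and HSPA9. Readthrough genes such as HSPE1-MOB4 were counted beside the gene they include, here HSPE1, so genes are not separate members. Cytosolic ribosomal protein genes were members in 3 of 55 cases (5.45%), histone genes in 3 of 47 (6.38%) and zinc finger genes with a ZNF symbol in 27 of 239 (11.3%). Mitochondrial ribosomal protein genes were at 6.25% and keratins at 0 of 4. Translation initiation factors (12.5%), proteasome subunits (12.9%) and solute carriers (13.9%) were near the share of all genes.

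Sequence motifs were counted in a window of 300 bp at the center of the bases called open in all 6 libraries. The AP-1 sequence TGACTCA, on either strand, was in 6.27% of member windows and 22.6% of the windows of other regions open in all libraries. Members included few distal sites. Away from coding promoters the share was 18.5% of 324 members and 36.7% of 8471 other regions. These 2 groups differ in make-up and are not distal sites only. Without multi-copy sequence, promoters of other gene types numbered 79 in the first and 1159 in the second, and both also held multi-copy regions. The part of this make-up in the difference was not tested. The CCAAT box was more frequent in promoter members (43.3%) than in other promoter regions (24.8%). In the RefSeq promoters of 1226 entries for member genes it occurred in 55.5%, beside 36.7% for other genes open in all libraries and 34.6% of all 35116 promoters of that length in the table. The GC box was in 53.2% of promoter members and 47.9% of other promoter regions, and in 34% and 13.7% away from coding promoters. The ETS sequence CCGGAAG was in 13.1% and 14.2% of promoter windows, and TGACGTCA in 1.87% and 1.63%. The highest member outside promoters and repeats with the AP-1 letters in this window lay at chr1:201273131-201277740, 5712 bp from the start site of PKP1, which encodes plakophilin 1, a desmosome protein of epithelia. It scored 182 and 283 in the control, 259 and 217 with TPA and 272 and 156 with ZnCl2, with overlapping conditions. The 300 bases at its center, chr1:201275326-201275625 on the plus strand, are shown with TGACTCA in capitals.
Distal member near PKP1: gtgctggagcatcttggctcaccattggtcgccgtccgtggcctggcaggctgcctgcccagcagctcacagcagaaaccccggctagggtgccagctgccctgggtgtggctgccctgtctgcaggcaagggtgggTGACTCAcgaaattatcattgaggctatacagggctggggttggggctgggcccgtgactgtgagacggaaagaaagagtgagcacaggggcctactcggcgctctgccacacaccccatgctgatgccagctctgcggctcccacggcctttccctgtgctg

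Members were unevenly spread along the genome. They made up 7.44% of the 15851 regions open in all 6 libraries, but 14.5% on chromosome 1 (312 members), 11.3% on chromosome 8 (99), 11.1% on chromosome 19 (84) and 10.9% on chromosome 5 (109), against 2.41% on chromosome 6 (19) and 3.77% on chromosome X (8). Within chromosomes 1, 5 and 8 most members lay toward 1 end, with limits set after the counts in bins of 20 Mb were seen. From 140 Mb on, chromosome 1 had 250 members (19.5%), against 55 (6.37%) up to 120 Mb. The bin between them, around the centromere, had few regions but the highest share of the chromosome, with 7 members of 10 regions (70%), of which 6 lay outside coding promoters. It holds the region beside a gap at chr1:125154201-125184570. From 120 Mb on, chromosome 5 had 98 (15.1%), against 11 (3.12%) before. From 100 Mb on, chromosome 8 had 80 (18.1%), against 19 (4.37%) before, and from 140 Mb on it had 38 of 108 (35.2%). These 3 stretches held 15% of the regions open in all libraries and 36.3% of the members.

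The excess was present in promoters and elsewhere. In the 3 stretches 34.7% of promoter regions and 10.2% of other regions were members, against 9.40% and 2.23% in the rest of the genome. Without repeated sequence and mitochondrial matches the shares were 17.2% and 5.23%. In each library, between 16.0% and 27.5% of the calls in a stretch were in the upper 10% of the list, while on chromosomes other than 19 and outside the 3 stretches the values lay between 7.66% and 8.65%. The rule and the limits of the stretches both rest on these scores, so the values are no separate evidence. The number of copies of these stretches in the cells was not measured, and its part in the scores was not tested. Of the 19 list genes with a member at the promoter, 9 lay in the 3 stretches, namely LAMB3, SLC30A1, SLC39A1, SHC1, BTG2, IER5, EGR1, VTRNA1-1 and KLF10.

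**Figure D4:**
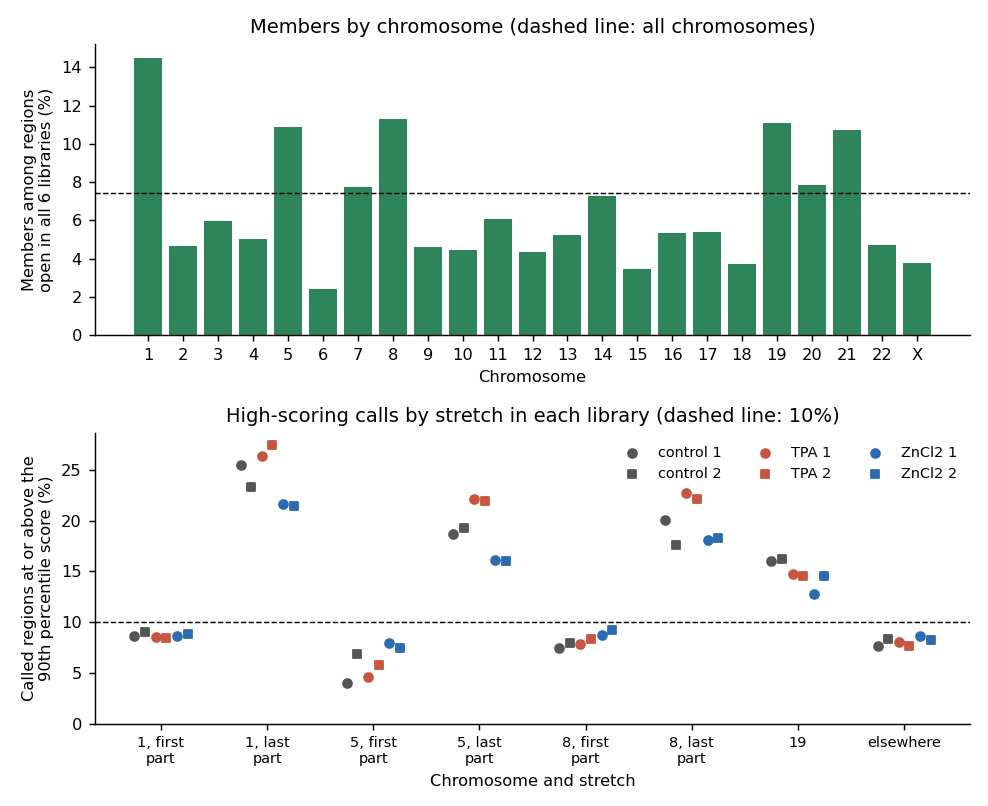
Top, members as a percentage of the regions open in all 6 libraries on each chromosome, with the value of all chromosomes, 7.44%, as a dashed line. Bottom, percentage of the calls of each library that reached the upper 10% of its list, by part of chromosomes 1 (up to 120 Mb and from 140 Mb), 5 (split at 120 Mb) and 8 (split at 100 Mb), on chromosome 19 and elsewhere, with each point 1 library. The last parts of chromosomes 1, 5 and 8 lie between 16.0% and 27.5% in all libraries.

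To ask whether the zinc treatments, which share the same controls, moved the members, the share of each merged region that a library called open was used, since it does not use the score. Averaged over members it was 53.4% and 84.9% in the control libraries, 58.7% and 62.3% under TPA, and 68.3% and 77.9% under ZnCl2. The control libraries enclosed all others. The mean with TPA was 60.5% ± 2.52 (SD, n = 2) and that of the control 69.2% ± 22.3 (SD, n = 2), which is lower, at -8.68 percentage points from the control (p = 1 by a two-sided exact permutation over libraries). With ZnCl2 it was 73.1% ± 6.78 (SD, n = 2), which is 3.87 points from the control (p = 1 by the same exact test). Without control replicate 1 this difference was -11.9 points, without control replicate 2 it was 19.6 points and without ZnCl2 replicate 2 it was -0.919 points. With 2 libraries against 2, no p below 0.333 can be reached. In the other regions open in all libraries the values were 50.0% and 84.5%, 55.9% and 58.5%, and 67.3% and 76.6%, and the libraries kept their order.

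Set against those other regions, the members had a called share that was 3.39 and 0.448 points higher in the control, 2.83 and 3.8 points higher with TPA and 0.966 and 1.27 points higher with ZnCl2. The differences from the control were 1.40 points for TPA (p = 0.667, exact permutation) and -0.803 points for ZnCl2 (p = 1, exact permutation). The number of separate calls per member was 1.14 and 1.14 in the control, 1.15 and 1.14 with TPA and 1.17 and 1.12 with ZnCl2, with differences of 0.00763 for TPA (p = 0.667, exact permutation) and 0.00763 for ZnCl2 (p = 1, exact permutation). Over these 6 tests every p adjusted by the Benjamini-Hochberg method was 1, from the exact permutation tests. The difference in called share between TPA and control turned to 7.06 points without control replicate 2 and was -24.4 points without control replicate 1.

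**Figure D5:**
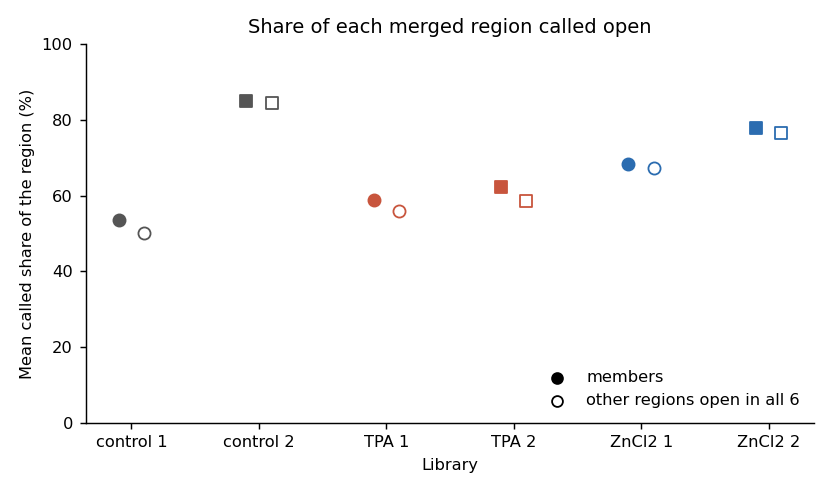
Mean share of the merged region that each library called open, in members (filled) and in the other regions open in all 6 libraries (open symbols). Each point is 1 library, with members between 53.4% and 84.9%, and the control libraries lie at both ends of the range.

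Member by member, the called share of both TPA libraries was above both controls in 24 members (2.03%, beside 1.75% of the 15851 regions open in all libraries) and below both in 210 (17.8% beside 17.1%). For ZnCl2 it was above in 124 (10.5% beside 11.1%) and below in 36 (3.05% beside 2.34%). The shares were thus near those of the background in each case. In the members with the largest rises under TPA, wide calls of some libraries spanned the separate narrow calls of others. The member at chr14:20342011-20367760, over the promoters of PARP2 and RPPH1, was called over 7.34% and 9.17% of its 25750 bp in the control, 100% and 99.2% with TPA and 9.28% and 8.43% with ZnCl2. In the U2 cluster on chromosome 17 the shares were 17.7% and 23.9%, 99.2% and 99.9%, and 20.3% and 18.0%. At the glutathione transferase genes GSTT2B and GSTT2 on chromosome 22 they were 8.35% and 8.89%, 96.2% and 96.3%, and 99.8% and 7.30%. Both TPA libraries stood alone in the first 2 of these, with no overlap with the other 4.

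The largest falls of the called share with TPA were at DGAT1, which encodes an enzyme of triglyceride synthesis (49.8% and 98.5% in the control, 17.6% and 19.4% with TPA), at a repeated region of chromosome 21 (40.5% and 100%, 12.8% and 20.5%) and at the transcription factor gene MAFA (50.4% and 100%, 21.1% and 24.2%). With ZnCl2 the largest rises were at a repeated region of chromosome 1 holding the histone pseudogene H2BP2 (18.5% and 54.3% in the control, 91.4% and 81.5% with ZnCl2), at the noncoding RNA gene LUNAR1 (36.7% and 48.4%, 67.5% and 98.2%) and at MZF1, a zinc finger gene (40.9% and 51.6%, 74.1% and 98.2%). The largest falls were in a region of 34770 bp beside a gap of chromosome 12 (99.3% and 99.5%, 46.5% and 15.1%), at MXD4, which encodes a partner of MAX (35.9% and 100%, 29.2% and 27.4%) and in a repeated region of chromosome 20 (96.5% and 99.8%, 96.3% and 29.1%). In each of these the groups did not overlap, and at DGAT1, MAFA, MXD4 and the regions of chromosomes 1 and 21 the control libraries were also far from each other. In the region of chromosome 20, ZnCl2 replicate 1 (96.3%) was barely below control replicate 1 (96.5%), so that fall rested on ZnCl2 replicate 2. Wide calls also set the widest members: IMPA2 (64270 bp), RNPEP with TIMM17A and LMOD1 (63420 bp) and HNRNPF (44290 bp) were called over 98.6% to 100% of their width in TPA replicate 2 and over at most 40.5% in every other library. ATP2B4 (43280 bp) was called over 71.8% and 76.9% with TPA and at most 20.1% in the other libraries.

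The order of members by score was more alike within a condition than between the treatments. Spearman's rho over the 1180 members was 0.734 between the controls, 0.802 between the TPA libraries and 0.779 between the ZnCl2 libraries. Between TPA and ZnCl2 libraries it lay between 0.484 and 0.598, and between either and the controls from 0.643 to 0.726. These values are over regions that share libraries and were chosen by the same scores. At the border of membership, the region at chr20:51455771-51458640 in NFATC2 was just inside, with 84 in ZnCl2 replicate 2 at a threshold of 84, as was that over the promoter of MPV17L2 with 78 in control replicate 1 at a threshold of 78. A region at chr6:6686471-6688100, over the start of a noncoding RNA, was at 84 in ZnCl2 replicate 2. Just outside were regions over the promoter of SOX12 and in the genes ZNF487 and SSR1, each with 97 in TPA replicate 2 at a threshold of 98.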

How the data were processed

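ATAC-seq libraries from MCF10A cells were grouped by the sample labels into control, TPA and ZnCl2, with 2 libraries each. Per the study's methods, reads were trimmed by the authors in BBDuk, aligned to hg38 by HISAT2 2.1.0 and passed to HMMRATAC, which called open regions library by library, without pooling. FastQC 0.11.8 and SAMtools 1.8 are named in the submitters' processing notes. The authors' deposited lists give positions and a score per region, whose kind and caller version are not given in the sources used here, so scores were used only as ranks or multiples of the 90th percentile of their own list. Depth is unknown, and precision is limited by the number of libraries. Blacklisted regions were removed by the authors at a later step and are present in these lists. Regions on other contigs and chromosome Y were left out, as the rule for members asks.

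Mitochondrial matches were found with blastn (BLAST+ 2.17.0), genes with GENCODE release 44 and RefSeq (GRCh38.p14, the build of the lists). Counts of 50 bp pieces were checked against a text search, and the member rule was tested on simulated lists. Regions named were the 10 highest members by mean log2 of score over the 90th percentile, 3 on either side of the border, those with the longest mitochondrial match, the 5 widest, 3 per treatment and direction by called share among groups that did not overlap, and members at the promoters of listed genes. The distal member and the regions with mitochondrial matches that were not members were named after their values were seen, as were the gene families. Members and lists were chosen with earlier results of these data known. Treated and control libraries were compared by the two-sided exact permutation test. Alternatives were other score thresholds, an equal number of regions per list, other promoter, match and repeat definitions, members without multi-copy sequence, medians, leaving out libraries and the replicate block. Computation used Python 3.11.15 with SciPy 1.17.1, numba 0.67.0, pandas 2.3.3, Matplotlib 3.10.9, pysam 0.24.0, NumPy 2.4.6 and samtools 1.23.1.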

Additional observations from a re-analysis of the deposited data

Results flagged for a closer look

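In 3 named members the TPA and ZnCl2 libraries lay on opposite sides of both controls, and whether the treatments differ was not tested. Named members were picked for high scores, width or groups that did not overlap, among other rules. The share of such opposite orders over all regions was not counted. In the region beside a gap at chr1:125154201-125184570 the called share was 36.5 percentage points higher with TPA and fell by 22.9 points with ZnCl2. The libraries were at 58.1% and 28.1% in the control, 59.5% and 99.7% with TPA and 13.5% and 26.8% with ZnCl2. TPA replicate 1 and ZnCl2 replicate 2 were thus each close to a control. At the DGAT1 promoter on chromosome 8 the called share fell by 55.6 points with TPA and was 25.4 points higher with ZnCl2. Control replicate 2 was already called over nearly the whole region there, so the ZnCl2 libraries were only slightly above it. At IMPA2 on chromosome 18 the log2 multiple of the threshold fell by 0.74 with TPA and was 0.14 higher with ZnCl2, and this score was among those that chose the members.

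On contigs outside chromosomes 1 to 22, X and Y, which no comparison used, the highest score of a list averaged 19.9 times the threshold over the ZnCl2 libraries. It was 24.9 and 14.9 times with ZnCl2, 12.1 and 11.3 times in the control and 16.9 and 8.01 times with TPA.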

How the results depend on the processing

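The number of members was 1180 and moved with the threshold to 523 (upper 5%), 2678 (upper 20%) and 704 (equal number per list). Without 1 library it was between 1190 and 1614, the highest without ZnCl2 replicate 2. The promoter share became 69.2% with the upper 20%, 21.1% when the center of the region had to lie in the promoter, and 67.8% to 72.9% without 1 library. Median GC was 54.5% in the highest call of ZnCl2 replicate 2, and median width was 2514 bp as mean called bases. The share with repeated sequence was 11.9%, 4.67% and 9.80% with the upper 5%, the upper 20% and an equal number, 60.8% with at least 1 repeated piece and 4.58% with pieces of 100 bp. The share with a mitochondrial match, 0.339%, stayed within its 95% binomial interval (Wilson) under all 11 alternatives run. With 4 matches that interval is wide, and it treats regions as independent, so it cannot show that the share held. The share was 0.765% with the upper 5%, 0.149% with the upper 20% and 0.169% with matches of at least 200 bp at 90% identity. Without 1 library, median GC was between 52.3% and 53.4%, median width between 3255 and 3650 bp and the mitochondrial share between 0.248% and 0.392%.

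The tested differences from the control depended on single libraries. Without 1 library the called share difference ranged from -24.4 to 7.06 points for TPA and from -11.9 to 19.6 for ZnCl2, the difference relative to other regions from -0.0713 to 2.87 and from -2.27 to 0.668, and calls per member from 0.00297 to 0.0123 and from -0.0165 to 0.0318. The sign turned for TPA without control replicate 2 (called share 7.06, relative share -0.0713). For ZnCl2 it turned without control replicate 1 (called share -11.9, relative share 0.668), without ZnCl2 replicate 2 (called share -0.919) and without ZnCl2 replicate 1 (calls per member -0.0165). Calls per member reversed to -0.00956 for TPA with the upper 5%, and for ZnCl2 to -0.00243 with the upper 20% and -0.00365 without multi-copy sequence, and as a median over members the difference was 0. The causes were not tested. No p fell under 0.333 in any exact permutation test, which is the lowest value that 2 libraries against 2 allow.

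Same-numbered control and TPA libraries had deviations in called share that correlated at -0.186, and no label states a shared batch. The replicate block left the called share differences at -8.68 and 3.87 points and the relative ones at 1.40 and -0.803 points. Calls per member stayed at 0.00763 for both treatments. Exact permutation p-values with the block were from 0.5 to 1, and 0.5 is the lowest value it can reach. Crossing the numbers, tried for TPA only and after seeing the data, has the same limit. Neither could therefore give a call, whatever the data. Without read counts, no accessibility difference could be tested by depth.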
